A study of Mus musculus with 8 samples.

Results

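The mitochondrially encoded transcripts are the RNAs read from the small circular chromosome inside mitochondria. They were taken here as every row of the deposited count table that matched, by Ensembl identifier without its version, a GENCODE M21 gene on the mitochondrial chromosome with a symbol starting mt-. This gave 37 of 55401 rows: 13 messenger RNA genes, 2 ribosomal RNA genes and 22 transfer RNA genes, which are all 37 genes that the annotation places there. The table came from RNA sequencing of mouse prospermatogonia, arrested germ cells of the male fetus, at E17.5 of gestation. Of the 8 libraries, 4 were from animals of genotype Tet1-/- (KO 1 to KO 4) and 4 from animals of genotype Tet1+/+ (WT 1 to WT 4), and all 8 carry the same batch label. RNA was depleted of ribosomal RNA before sequencing. The strain, the kind of Tet1 allele, the isolation of the cells and any pooling of animals are not stated in the labels, so p-values measure the spread between these libraries only.

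TET1 oxidises methylated cytosine in nuclear DNA, and by its title the series asks how TET1 acts without its catalysis in the male germline. The comparison here asks which mitochondrially encoded RNAs differed between the labelled groups. Tet1 itself went against its label, with 75.8 to 147 CPM (counts scaled to library size, with TMM normalisation) in the libraries labelled KO and 30.2 to 34.2 CPM in those labelled WT. A gene count cannot show which exons were read. KO and WT below therefore always mean the libraries so labelled, and directions refer to the labels. Germ cell markers such as Ddx4 and Dazl summed to 1332 to 1600.2 CPM in KO and 1427 to 1641 CPM in WT over 8 genes. Of these 8 genes, 3 were called higher in KO and 2 lower (edgeR adjusted p under 0.05), so the sum hides changes of single markers. The 5 fetal Leydig cell markers, among them Star and Cyp17a1, summed to 1751 CPM in KO 4 and to between 12.5 and 28.0 CPM in the other libraries, and 4 of the 5 were called higher in KO. Markers of Sertoli, stromal, endothelial, macrophage and erythroid cells summed to at most 154 CPM per list in every library. Of these, 2 of 6 Sertoli markers were called higher and 1 lower (summed level 23.0 to 37.5 CPM in KO and 15.2 to 27.4 in WT), 3 of 4 endothelial markers lower and 1 higher (55.4 to 69.6 and 56.6 to 67.8) and 2 of 5 macrophage markers lower and 0 higher (5.50 to 9.70 and 6.85 to 11.3). Of 6 stromal markers and of 5 erythroid markers, 1 each was called higher and 1 lower. These marker calls stand against 25.3% of all genes tested called higher and 28.2% lower. Erythroid markers summed to 12.7 to 20.9 CPM in KO, highest in KO 4, and to 17.9 to 22.8 in WT. The part of these cells in the results was not tested, apart from leaving out KO 4. Total counts per library ran from 13820764 to 20115250. In such bulk samples, fewer cells of a type and less RNA per cell cannot be told apart.

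Mitochondrial DNA is copied into RNA along nearly its whole length from both strands by the polymerase POLRMT with the factors TFAM and TFB2M. The heavy strand transcript carries both ribosomal RNAs, most messengers and most transfer RNAs, and the light strand transcript carries mt-Nd6 and the remaining transfer RNAs. Transfer RNAs lie between the other genes like punctuation, and cutting at their ends by RNase P and ELAC2 frees the messengers and ribosomal RNAs. The messengers encode core subunits of respiratory complexes I, III and IV and of the ATP synthase, and the ribosomal and transfer RNAs serve their translation inside the organelle. Of the 37 genes, 28 lie in the heavy strand transcript (12 messenger, 2 ribosomal, 14 transfer) and 9 in the light strand transcript (1 messenger, 8 transfer).

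Part of this chromosome has a near-identical copy in the nucleus, and the counts of the genes inside it were very low. A block of 7 annotated pseudogenes on chromosome 1 (24611535 to 24616197, minus strand, GRCm38) follows the mitochondrial genes from the end of mt-Co1 to the middle of mt-Nd4, positions 6390 to 11042 of the mitochondrial chromosome. The start of mt-Co2 (subunit of cytochrome oxidase) and of mt-Nd3 (subunit of complex I) are shown with their nuclear copies, because they carry this finding. Capitals mark bases that differ, and all 4 runs are the first 60 bases of the gene, 5′ to 3′.
mt-Co2, chrM:7013-7072, plus strand: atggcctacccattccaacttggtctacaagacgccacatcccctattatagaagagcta
Gm28661, chr1:24615506-24615565, minus strand: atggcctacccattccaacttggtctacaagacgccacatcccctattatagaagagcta
mt-Nd3, chrM:9459-9518, plus strand: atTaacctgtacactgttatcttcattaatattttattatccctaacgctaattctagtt
Gm28438, chr1:24613060-24613119, minus strand: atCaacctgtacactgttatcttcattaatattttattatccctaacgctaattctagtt
The mt-Co2 stretch had 0 differences from its copy and the mt-Nd3 stretch had 1, T3C, counted from 1 at the start of the gene with the mitochondrial base first. Over their aligned lengths, 6 copies were 100% identical to the mitochondrial gene (Gm28439 to mt-Nd4 over 876 bases, Gm10222 to mt-Nd4l over 294, Gm28438 to mt-Nd3 over 342, Gm28437 to mt-Co3 over 783, Gm10925 to mt-Atp6 over 678 and Gm28661 to mt-Co2 over 681). Gm29216 matched the last 483 bases of mt-Co1 with 1 mismatch.

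The messengers with the most copied sequence, and mt-Atp8, which lies among them, had the lowest levels per kilobase of gene. The share of 50-base windows with an identical copy in any annotated nuclear transcript was 100% for mt-Co2, 99.9% for mt-Co3 (cytochrome oxidase), 99.5% for mt-Atp6 (ATP synthase), 98.8% for mt-Nd4l and 98.0% for mt-Nd3 (both complex I). It was 62.2% for mt-Nd4, 51.1% for mt-Co1, 8.19% for mt-Nd2, 7.61% for mt-Nd5 and 0% for mt-Nd1, mt-Nd6 and mt-Cytb. The WT level of mt-Co1, 3257 ± 139 CPM per kilobase (SD, n = 4), stood beside 7.12 ± 4.09 for mt-Co2, which encodes a partner subunit of the same enzyme and lies next to it in the same transcript. In KO the values were 4034 ± 310 and 6.26 ± 5.04 CPM per kilobase (SD, n = 4). The WT levels of mt-Atp6, mt-Co3 and mt-Nd4l were 10.8 ± 5.47, 3.74 ± 2.33 and 4.36 ± 2.56 CPM per kilobase (SD, n = 4). Counts of mt-Nd3, whose copy differs near its start, were higher, at 81.5 ± 13.4 CPM per kilobase in WT and 106 ± 14.9 in KO (SD, n = 4). mt-Atp8 had 0% of windows copied in an annotated transcript and 3.42 ± 1.90 CPM per kilobase in WT (SD, n = 4), but lies inside the matched span, in a gap between Gm10925 and Gm28661. The 7 pseudogenes themselves summed to 7 to 55 counts in a library. How reads that match in more than 1 place were counted is not stated in the labels, and its part in these levels was not tested. Whether the counts of these 6 messengers follow the abundance of their RNA was therefore not settled by these data. The same limit holds for the copied parts of mt-Nd4 (62.2% of windows) and mt-Co1 (51.1%), whose levels per kilobase were taken over the whole gene.

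**Figure D1:**
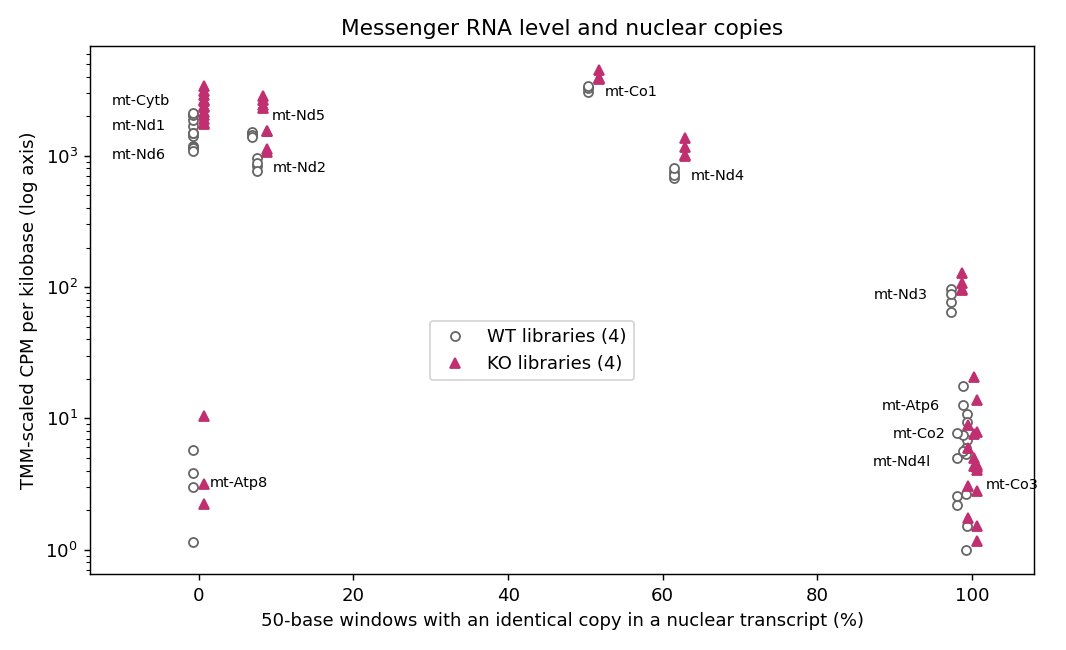
Each point is 1 library: TMM-scaled CPM per kilobase of gene (log axis) against the percentage of 50-base windows of the gene with an identical copy in an annotated nuclear transcript, for the 13 messenger RNAs, with open circles for WT and triangles for KO and a small sideways shift between groups. The 5 genes at 98.0% or more and mt-Atp8 lie far below the other 7, and mt-Atp8 in KO 3 had a count of 0 and is not drawn.

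A second limit on single genes comes from overlaps. The messengers for mt-Atp8 and mt-Atp6, and those for mt-Nd4l and mt-Nd4, are read from shared RNAs in which the second frame begins before the first has ended. The shared bases are shown because a read over them belongs to both genes, with the start codon of the second frame and the stop codon of the first in capitals.
mt-Atp8 and mt-Atp6, chrM:7927-7969, plus strand: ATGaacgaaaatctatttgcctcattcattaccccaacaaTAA
mt-Nd4l and mt-Nd4, chrM:10167-10173, plus strand: ATGcTAA
Across strands, mt-Nd5 and mt-Nd6 share 14 bases at their ends (chrM:13552-13565, plus strand, ttaatctcgagtaa). The strand setting of the counting is not stated in the labels. Without strand, reads from mt-Nd6 and from heavy strand RNA that crosses it cannot be told apart, and the same holds for every light strand gene.

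Among the 37 genes, 33 passed the filter on low counts, and 21 of these were higher and 0 lower in KO at an adjusted p under 0.05 (edgeR quasi-likelihood test with Benjamini-Hochberg adjustment over 24005 genes). At an unadjusted p under 0.05 the number lower was also 0, and DESeq2 called 22 higher and 0 lower. Over all genes tested, 53.5% were called, 25.3% higher and 28.2% lower. The median log2 difference, KO minus WT, was 0.81 over the 33 and -0.05 over all genes tested. TMM-scaled levels of the groups did not overlap, with KO above WT, for 15 of the 33, against 23.2% of all genes (25.1% with KO below, 48.4% either way). On raw library totals they did not overlap for 11, against 17.4% of all genes (30.9% with KO below). With upper-quartile scaling, which shifted the all-gene median by -0.24 (4033 genes called higher, 8882 lower), 15 members were higher. With scaling on ribosomal protein genes (a shift of -0.17, with 3962 higher and 7446 lower) 16 were higher, and on raw library totals (-0.18, with 4478 higher and 8201 lower) 17 were. None was lower under these 3 settings. Leaving out KO 4, the library with Leydig cell markers, kept the direction and call of all 33.

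The 2 ribosomal RNAs made up most of the mitochondrially encoded counts and did not pass the test. The large ribosomal RNA mt-Rnr2 (ENSMUSG00000064339.1, chrM:1094-2675) had 68107, 64339, 60379 and 71229 CPM in KO 1 to KO 4 and 58551, 45330, 60870 and 57385 CPM in WT 1 to WT 4. The small ribosomal RNA mt-Rnr1 (ENSMUSG00000064337.1, chrM:70-1024) had 32128, 29859, 25201 and 29356 CPM in KO and 26487, 18899, 28547 and 25406 CPM in WT. WT 2 was the lowest library for both genes, and the groups overlapped. Their log2 differences were 0.25 (SE 0.146, edgeR adjusted p = 0.166) and 0.23 (SE 0.153, edgeR adjusted p = 0.220), and that of mt-Rnr1 was -0.01 with upper-quartile scaling. DESeq2 called mt-Rnr2 higher (log2 difference 0.27, adjusted p = 0.0402). Both are levels left after ribosomal RNA depletion. The 2 genes together took 8.32 to 9.57% of a library's counts in KO and 7.09 to 9.13% in WT.

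The 7 messengers outside the low-count span were all higher in KO. Their groups did not overlap with TMM scaling, against 23.2% of all genes with KO above. On raw library totals 4 did not overlap, against 17.4%, and mt-Nd1, mt-Nd2 and mt-Co1 overlapped. They rose by amounts between 0.31 and 0.90 on the log2 scale, against a median of -0.05 for all genes. Those of complex I, which feeds electrons from NADH into the respiratory chain, had 5 members here. mt-Nd5 (ENSMUSG00000064367.1, chrM:11742-13565) had 4884, 4242, 5156 and 4403 CPM in KO 1 to KO 4 and 2737, 2744, 2611 and 2533 CPM in WT 1 to WT 4. Every KO library was at least 4242 CPM and every WT library at most 2744. The log2 difference was 0.81 (SE 0.109, edgeR adjusted p = 5.52e-05), a rise of 1.76-fold.

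The first messengers after the ribosomal RNAs showed the same direction. mt-Nd1 (ENSMUSG00000064341.1, chrM:2751-3707) had 2066, 1811, 2304 and 1938 CPM in KO and 1598, 1342, 1435 and 1431 CPM in WT, a log2 difference of 0.48 (SE 0.111, edgeR adjusted p = 0.00258). mt-Nd2 (ENSMUSG00000064345.1, chrM:3914-4951) had 1594, 1102, 1602 and 1176 CPM in KO and 991, 860, 916 and 796 CPM in WT, a difference of 0.62 (SE 0.139, edgeR adjusted p = 0.00223). In mt-Nd2 the KO libraries split, with KO 1 and KO 3 above KO 2 and KO 4. The call of mt-Nd1 was lost with upper-quartile scaling (edgeR adjusted p = 0.0893) and with scaling on ribosomal protein genes (0.0908). mt-Nd4 (ENSMUSG00000064363.1, chrM:10167-11544), whose first 876 bases have the nuclear copy, had 1593, 1388, 1867 and 1382 CPM in KO and 1034, 940, 981 and 1116 CPM in WT. It rose by 0.61 (SE 0.120, edgeR adjusted p = 0.000865), with the groups apart also on raw totals.

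mt-Cytb (ENSMUSG00000064370.1, chrM:14145-15288) encodes cytochrome b, the mitochondrially encoded subunit of complex III. It had 3545, 2986, 3908 and 3305 CPM in KO and 2322, 2136, 2333 and 2432 CPM in WT, a log2 difference of 0.58 (SE 0.114, edgeR adjusted p = 0.000951). mt-Co1 (ENSMUSG00000064351.1, chrM:5328-6872), the catalytic subunit of cytochrome oxidase, had the highest level per kilobase of the 13 messengers in both groups and the smallest difference of the 7. Its levels were 5986, 5973, 6951 and 6021 CPM in KO and 5083, 4732, 5071 and 5242 CPM in WT. KO 3 stood above the other KO libraries. The log2 difference was 0.31 (SE 0.110, edgeR adjusted p = 0.0297), and the call was lost with the 3 scalings that shift all genes down (adjusted p = 0.277 to 0.601), with the stricter filter (0.0536) and without KO 3, WT 1 or WT 2 (0.0574 to 0.0771).

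**Figure D2:**
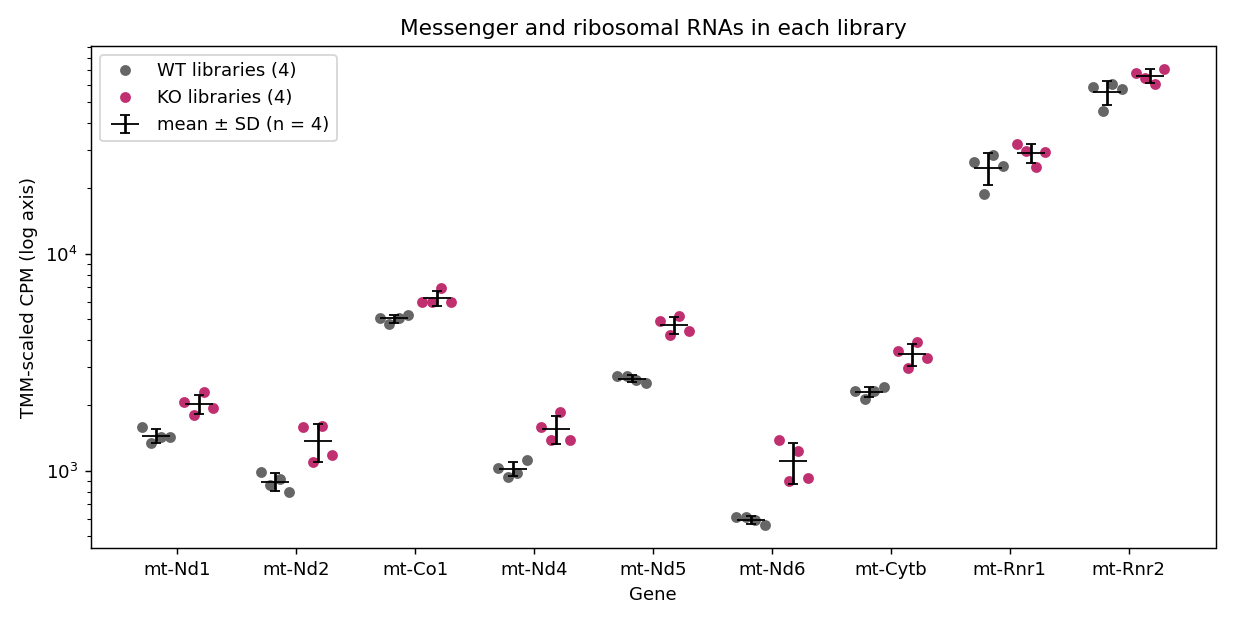
TMM-scaled CPM on a log axis in each library (points) with the mean and SD of 4 libraries per group (bars), for the 7 messengers outside the low-count span and both ribosomal RNAs. The groups do not overlap for the messengers, from mt-Nd6 (at most 615 CPM in WT and at least 898 in KO) to mt-Co1, and overlap for mt-Rnr1 and mt-Rnr2.

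The messenger of the light strand transcript had the largest difference of the 13 with all libraries, while without KO 1 mt-Nd5 was at 0.82 and mt-Nd6 at 0.80. mt-Nd6 (ENSMUSG00000064368.1, chrM:13552-14070, minus strand) encodes a membrane subunit of complex I. It had 1384, 898, 1227 and 926 CPM in KO 1 to KO 4 and 615, 609, 595 and 560 CPM in WT 1 to WT 4. The log2 difference was 0.90 (SE 0.138, edgeR adjusted p = 0.000149), a rise of 1.86-fold. WT libraries lay within 1.10-fold of each other and KO libraries within 1.54-fold, with KO 1 and KO 3 highest. Per kilobase its level was 1146 ± 47.9 CPM in WT and 2136 ± 455 in KO (SD, n = 4), next to 1456 ± 56.1 and 2561 ± 232 for its heavy strand neighbour mt-Nd5.

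The 6 messengers inside the low-count span had log2 differences from -0.22 to 0.38. Apart from mt-Nd3 their SEs were 0.461 to 0.745, too wide to show whether they changed as the other messengers did. mt-Nd3 (ENSMUSG00000064360.1, chrM:9459-9806) was the 1 that passed (0.38, SE 0.144, edgeR adjusted p = 0.0382). It had 37.2, 33.6, 44.2 and 32.9 CPM in KO and 33.3, 22.7, 26.7 and 30.7 CPM in WT, and WT 1 lay above KO 4. The call was lost with the 3 scalings that shift all genes down (adjusted p = 0.245 to 0.422), with the stricter filter (0.0564) and without KO 1, KO 3, WT 2 or WT 3 (0.0576 to 0.0890). mt-Co2 had 9.41, 1.93, 3.03 and 2.76 CPM in KO and 7.38, 4.65, 6.43 and 1.04 CPM in WT, a log2 difference of -0.20 (SE 0.530, edgeR adjusted p = 0.769). The spread within a group, 4.88-fold in KO and 7.12-fold in WT, was far wider than between groups. mt-Atp6, mt-Co3, mt-Nd4l and mt-Atp8 had log2 differences of -0.22, -0.04, 0.14 and 0.20 with edgeR adjusted p between 0.709 and 0.963, and their sign turned in other settings.

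Ratios of 2 genes within a library do not depend on scaling. Of 6 such ratios, tested by exact two-sided permutation over 70 splits (smallest p 0.0286) with 0.5 added to each count, none passed after adjustment over the 6. A ratio that alone reached the smallest p would have an adjusted p of 0.171, and 4 ratios would have to reach it for any to pass. Cytochrome b to mt-Nd1, the last against the first messenger of the heavy strand transcript, was 1.72, 1.65, 1.70 and 1.71 in KO and 1.45, 1.59, 1.63 and 1.70 in WT. The mean log2 difference was 0.09 (exact permutation p = 0.0857, adjusted p = 0.429), with WT 4 inside the KO range. The large ribosomal RNA to mt-Nd1 was 33.0, 35.5, 26.2 and 36.8 in KO and 36.6, 33.8, 42.4 and 40.1 in WT, a log2 difference of -0.22 (exact permutation p = 0.143, adjusted p = 0.429). The ratio of mt-Nd6 to mt-Nd5, light against heavy strand, was 0.283, 0.212, 0.238 and 0.210 in KO and 0.225, 0.222, 0.228 and 0.221 in WT (log2 difference 0.06, exact permutation p = 0.686, adjusted p = 0.857). Every KO library lay outside the narrow WT range, KO 1 and KO 3 above it and KO 2 and KO 4 below it. KO 1 lay furthest from it, and without KO 1 the difference was -0.03. The small to the large ribosomal RNA was 0.412 to 0.472 in KO and 0.417 to 0.469 in WT (exact permutation p = 0.857, adjusted p = 0.857). The ratios of mt-Nd4l to mt-Nd4 and of mt-Atp8 to mt-Atp6 rest on few counts of the first gene (log2 differences -0.50 and -0.30, exact permutation p = 0.457 and 0.857, adjusted p = 0.857 for each).

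**Figure D3:**
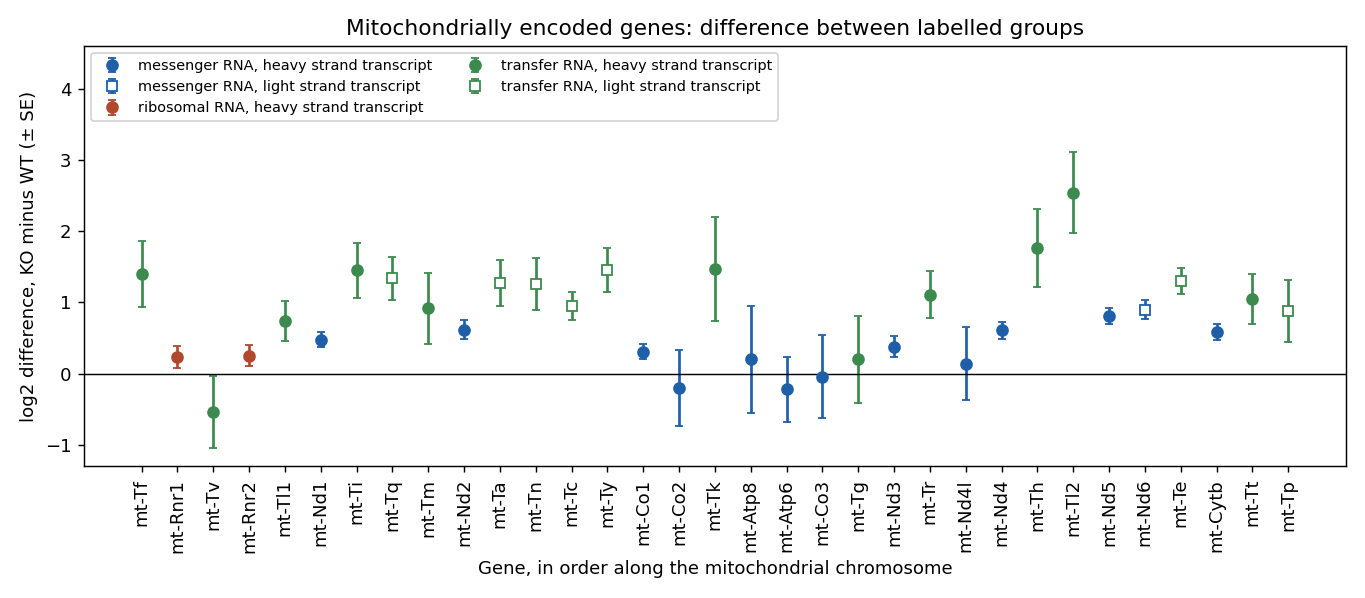
Points are the log2 difference, KO minus WT, with its SE for the 33 members tested, in their order along the mitochondrial chromosome; colour gives the RNA class, and filled circles are heavy strand and open squares light strand transcripts. Both ribosomal RNAs lie at 0.23 and 0.25, the low-count messengers scatter around 0, and most transfer RNAs lie near 1 with wide errors, apart from mt-Tv at -0.54 and mt-Tl2 at 2.54.

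Most transfer RNAs that passed the filter were higher in KO. Apart from mt-Tv (841 CPM per kilobase in KO and 1224 in WT), their mean levels were at most 464 CPM per kilobase in either group, below the 7 messengers above. Of 22 genes, 18 were tested, 13 were called higher and 0 lower, and the other 5 missed the threshold. The median log2 difference was 1.27. A transfer RNA is short, so few reads fit within one. Whether the counts came from cut transfer RNAs or from uncut RNA across the gene was not tested. The gene sequences of the 6 with the highest mean level, and of mt-Tl2, which had the largest difference, are shown. They run 5′ to 3′ as the gene is read, with the anticodon in capitals. The anticodon was placed in the middle of a loop of 7 bases closed by a stem.
mt-Tv (valine), chrM:1025-1093, plus strand: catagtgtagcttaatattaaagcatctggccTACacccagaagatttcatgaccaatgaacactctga
mt-Tp (proline), chrM:15356-15422, minus strand: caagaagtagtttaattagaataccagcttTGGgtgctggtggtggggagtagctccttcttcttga
mt-Te (glutamate), chrM:14071-14139, minus strand: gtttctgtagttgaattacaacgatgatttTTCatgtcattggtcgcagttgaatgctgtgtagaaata
mt-Tg (glycine), chrM:9391-9458, plus strand: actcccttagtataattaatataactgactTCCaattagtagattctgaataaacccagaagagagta
mt-Tc (cysteine), chrM:5192-5257, minus strand: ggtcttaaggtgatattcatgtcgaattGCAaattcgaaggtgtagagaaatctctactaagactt
mt-Tl1 (leucine), chrM:2676-2750, plus strand: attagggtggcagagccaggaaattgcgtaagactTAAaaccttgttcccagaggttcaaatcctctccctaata
mt-Tl2 (leucine), chrM:11671-11741, plus strand: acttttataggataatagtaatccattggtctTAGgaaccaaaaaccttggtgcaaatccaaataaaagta

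The light strand transfer RNAs were the more uniform. Of 8, 7 were tested and 6 were higher, with log2 differences from 0.88 to 1.46 and a median of 1.27. mt-Te (ENSMUSG00000064369.1), which lies directly upstream of mt-Nd6 in the light strand RNA, had 26.0, 15.6, 26.1 and 18.2 CPM in KO 1 to KO 4 and 9.58, 8.54, 8.47 and 8.15 CPM in WT 1 to WT 4. Every KO library was above every WT library, and the log2 difference was 1.30 (SE 0.183, edgeR adjusted p = 7.64e-05). mt-Tc had 25.8, 14.6, 18.3 and 13.6 CPM in KO and 8.60, 10.2, 9.35 and 9.19 CPM in WT, also without overlap (0.95, SE 0.197, edgeR adjusted p = 0.00132). The neighbours mt-Ta (alanine), mt-Tn (asparagine) and mt-Ty (tyrosine), which form a cluster with mt-Tc between mt-Nd2 and mt-Co1, rose by 1.27, 1.26 and 1.46, and mt-Tq (glutamine) rose by 1.34. mt-Tp, at the start of the light strand gene order, did not pass (0.88, SE 0.435, edgeR adjusted p = 0.105). It had 58.3, 7.66, 29.3 and 29.1 CPM in KO and 27.6, 14.2, 11.8 and 13.8 CPM in WT, with KO 2 below every WT library. It passed without KO 2 (adjusted p = 0.00477), without WT 1 (0.0442) and with no low-count filter (0.00454).

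Heavy strand transfer RNAs spread more widely. Of 14, 11 were tested and 7 were higher, with log2 differences from -0.54 to 2.54. mt-Tv (ENSMUSG00000064338.1), which separates the 2 ribosomal RNAs, was the most abundant, with 127, 18.2, 29.1 and 58.0 CPM in KO and 124, 79.8, 106 and 28.7 CPM in WT. Its range was 6.99-fold in KO and 4.32-fold in WT, and it did not pass (log2 difference -0.54, SE 0.505, edgeR adjusted p = 0.382). Without KO 1 it was called lower (-1.25, adjusted p = 0.0327). mt-Tl1, which joins the large ribosomal RNA to mt-Nd1, had 27.7, 10.8, 14.2 and 14.4 CPM in KO and 14.5, 9.58, 9.30 and 6.67 CPM in WT, and passed narrowly (0.74, SE 0.286, edgeR adjusted p = 0.0431). WT 1 lay above KO 2, KO 3 and KO 4, and the call was lost in 9 of 18 other settings (adjusted p = 0.0546 to 0.173), among them without KO 1 (0.173), WT 2 (0.0725), WT 3 (0.0837) or WT 4 (0.0955). mt-Tg lies inside the matched span, with 0% of windows copied in an annotated transcript. It had 39.4, 2.04, 7.53 and 13.4 CPM in KO and 23.1, 15.0, 9.83 and 6.21 CPM in WT, with no call (0.20, SE 0.615, edgeR adjusted p = 0.803).

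Downstream of mt-Nd4 the differences were large but rested on some KO libraries. mt-Tl2 had 7.95, 0.851, 8.41 and 2.51 CPM in KO and 0.717, 0.987, 0.925 and 0.712 CPM in WT (log2 difference 2.54, SE 0.572, edgeR adjusted p = 0.00232). KO 2 lay within the WT range and KO 1 and KO 3 far above it. mt-Th (histidine), upstream of it, rose by 1.76 and had 10.6, 1.08, 4.87 and 2.38 CPM in KO and 0.925 to 1.74 CPM in WT, again with KO 2 inside the WT range. Without KO 1 the call of mt-Th was lost (edgeR adjusted p = 0.0828). The remaining calls were mt-Tf (phenylalanine, 1.40), mt-Ti (isoleucine, 1.45), mt-Tr (arginine, 1.11, inside the matched span) and mt-Tt (threonine, 1.05). The groups did not overlap for mt-Ti and mt-Tr. They overlapped for mt-Tf and mt-Tt, with KO 2 inside both WT ranges and KO 4 inside that of mt-Tt. mt-Tf and mt-Tt lost the call without KO 1 (0.0907 and 0.0813) and with upper-quartile scaling (0.0522 and 0.0691). mt-Tt also lost it without KO 3 (0.0532) or WT 3 (0.0569) and on raw totals (0.0566), and mt-Tr with scaling on ribosomal protein genes (0.0533). mt-Tm (methionine, 0.92, edgeR adjusted p = 0.134) and mt-Tk (lysine, 1.47, edgeR adjusted p = 0.104, inside the matched span) did not pass. Both passed without KO 2 (0.0152 and 0.0146) and with no low-count filter (0.0105 and 0.0290).

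Among the KO libraries, the transfer RNAs were high and low in the same libraries. KO 1 was the highest KO library for 15 of the 18 tested and KO 3 for the other 3, while KO 2 was the lowest for 14 and KO 4 for 4. The median SD of log2 CPM within a group was 0.881 in KO and 0.358 in WT for transfer RNAs, 0.245 and 0.135 for messengers, and 0.125 and 0.227 for ribosomal RNAs. Summed over the 22 genes, transfer RNAs took 0.0422, 0.00926, 0.0222 and 0.0193% of all counts in KO 1 to KO 4 and 0.0265, 0.0189, 0.0191 and 0.0104% in WT 1 to WT 4. The groups overlapped, and KO 2 was the lowest of all 8 libraries. The light strand genes alone took 0.0149, 0.00511, 0.0119 and 0.00768% in KO and 0.00430 to 0.00643% in WT, so that KO 2 lay within the WT range. KO 2 was also the lowest KO library for mt-Nd1, mt-Nd2, mt-Co1, mt-Nd5, mt-Nd6 and mt-Cytb, though above every WT library for each of these.

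**Figure D4:**
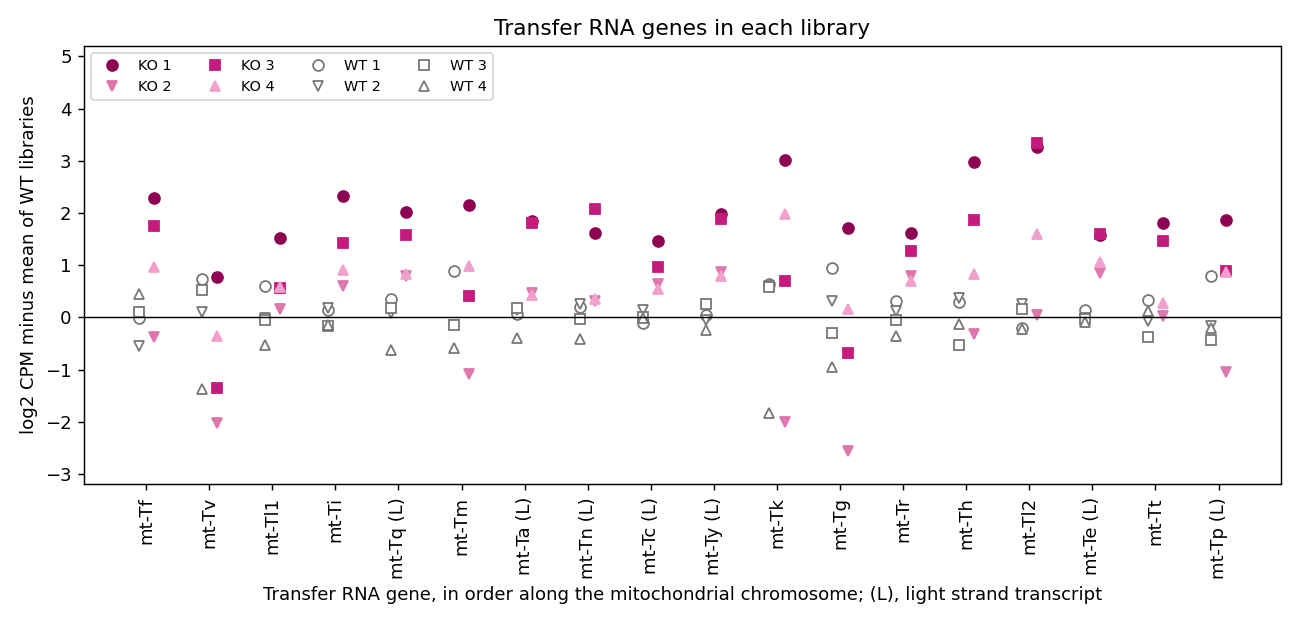
Each point is 1 library: log2 of TMM-scaled CPM minus the mean of the log2 values of the 4 WT libraries, for the 18 transfer RNA genes tested, with filled symbols for KO and open ones for WT. KO 1 is highest among KO for 15 genes and KO 2 lowest for 14, and for mt-Tv 3 KO libraries lie below the WT mean.

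The 4 genes that did not pass the filter were also transfer RNAs. mt-Tw (tryptophan) had 55, 7, 49 and 15 counts in KO 1 to KO 4, together 126, and 30 over the WT libraries. mt-Ts2 (serine) had 58, 10, 43 and 18 counts in KO 1 to KO 4, together 129, and 28 over the WT libraries. With TMM scaling KO 2 lay inside the WT range for mt-Tw (0.397 CPM against 0.259 to 0.584), and the groups did not overlap for mt-Ts2. With no low-count filter both were called higher (log2 differences 2.40 and 2.52, edgeR adjusted p = 0.000134 and 3.67e-05). mt-Ts1 (serine, light strand) had 5, 1, 8 and 1 counts in KO 1 to KO 4, together 15, and 0 in WT. It was also called then (edgeR adjusted p = 0.00911). mt-Td (aspartate) had 3 counts in KO and 0 in WT and was not called (0.210). Both mt-Ts1 and mt-Td lie inside the span matched on chromosome 1, with 0% of windows copied in an annotated transcript. Nuclear sequence outside annotated transcripts was not searched. A count of 0 allowed up to 3 in a library, which is 0.146 to 0.194 CPM in WT.

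By class and strand, heavy strand messengers together took 1.85, 1.55, 2.14 and 1.74% of all counts in KO 1 to KO 4 and 1.46, 1.41, 1.37 and 1.43% in WT 1 to WT 4, with no overlap. The KO mean was 1.28-fold the WT mean. This sum holds the 6 messengers of the low-count span with their counts as given, so it is a share of counts and may not be the share of messenger RNA. mt-Nd6, the light strand messenger, took 0.104 ± 0.0244% in KO and 0.0630 ± 0.00392% in WT (SD, n = 4), a ratio of 1.66. Ribosomal RNAs had a ratio of 1.05, light strand transfer RNAs 1.93 and heavy strand transfer RNAs 0.981. All these ratios are of shares of raw library totals, without TMM scaling. They are therefore not on the scale of the log2 differences above, and raw totals shifted the all-gene median by -0.18. The largest single part of the heavy strand sum was mt-Tv, with 3531 counts in KO and 6403 in WT. The ratio of all transfer RNAs was 1.24 with mt-Tv and 1.81 without it. All 37 genes together took 9.96 to 11.4% of counts in KO and 8.59 to 10.6% in WT, and the groups overlapped. Within the mitochondrially encoded counts, heavy strand messengers held 15.2 to 20.1% in KO and 12.9 to 16.4% in WT, and ribosomal RNAs 78.6 to 83.8% and 82.6 to 86.3%.

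Nuclear genes that make, cut, modify and use these RNAs leaned higher in KO, with exceptions. The counts and medians of these lists are given with TMM scaling only. Upper-quartile scaling, scaling on ribosomal protein genes and raw library totals shifted the all-gene median by -0.24, -0.17 and -0.18. Read against 25.3% of all genes higher and 28.2% lower, 8 of 12 genes for transcription of mitochondrial DNA were higher and 0 lower, with a median log2 difference of 0.51. The activator Tfam went from 19.8 ± 1.65 to 35.6 ± 4.01 CPM (SD, n = 4), a rise of 0.85 (edgeR adjusted p = 0.000107). Mrpl12, a ribosomal protein that also binds the polymerase, rose by 1.20 and the helicase gene Twnk by 1.38. Twnk and Tfam were each placed in 2 of the lists, this one and that for replication and upkeep of mitochondrial DNA. The polymerase gene Polrmt rose by 0.49 (edgeR adjusted p = 0.00811), a call lost with upper-quartile scaling and with scaling on ribosomal protein genes.

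Of 20 tested genes for cutting, polyadenylation, stability and decay of mitochondrial RNA, 8 were higher and 2 lower (median 0.24). Pde12, which trims poly(A) from mitochondrial RNA, rose by 1.16, Fastkd1 by 0.81, the helicase gene Supv3l1 of the mitochondrial degradosome by 0.70 and Tbrg4 by 0.61. Those that fell were Lrpprc, which stabilises mitochondrial messengers, from 443 ± 48.9 to 308 ± 27.3 CPM (SD, n = 4; log2 difference -0.52, edgeR adjusted p = 0.00133), and 1110008L16Rik, the RNase P nuclease gene (-0.41, edgeR adjusted p = 0.0197). The call of 1110008L16Rik was lost without KO 1, KO 3, KO 4 or WT 3 and with no low-count filter. Of 19 genes for modification of mitochondrial transfer and ribosomal RNA, 10 were higher and 0 lower (median 0.33). The wobble uridine modifier Gtpbp3 rose by 1.42, the ribosomal RNA methyltransferase gene Mrm2 by 1.29, the pseudouridine synthase gene Pus1 by 1.04 and Nsun2 by 0.69. Of 20 genes for charging mitochondrial transfer RNAs, 8 were higher and 0 lower (median 0.25). Rars2 rose by 1.17, Pars2 by 1.11, Tars2 by 0.84 and Yars2 by 0.81.

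Of 18 genes for replication and upkeep of mitochondrial DNA, 13 were higher and 1 lower (median 0.64). The exonuclease gene Mgme1 rose by 1.02, Primpol by 1.27 and the single-strand binding protein gene Ssbp1 by 0.79. Top1mt, the mitochondrial topoisomerase gene, fell by 0.95 on the log2 scale, with 11.9 ± 0.961 CPM in KO against 23.0 ± 3.72 in WT (SD, n = 4). Of 11 nuclear regulators of mitochondrial biogenesis, 6 were higher and 2 lower (median 0.34). Yy1 rose by 1.08, Esrrb by 1.28 and Gabpb1 by 0.77. The coactivator gene Ppargc1a had 1.04 ± 0.329 CPM in KO against 3.42 ± 1.35 in WT (SD, n = 4), a log2 difference of -1.72. For the receptor gene Esrrg these were 3.18 ± 0.602 and 9.16 ± 5.02 (SD, n = 4), a log2 difference of -1.53. The nuclear-encoded subunits that share complexes I, III, IV and V with the mitochondrial ones had 42 of 70 higher, 2 lower and 26 not passing (median 0.45). Uqcrq and Cyc1 of complex III rose by 1.87 and 1.39, and Atp5f1 of the ATP synthase by 1.66. Ndufa8 (-0.48) and Uqcrc1 (-0.41) fell, and Ndufa8 lost its call without KO 3, WT 1 or WT 3.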

How the data were processed

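The authors deposited a table of unnormalised whole-number counts. The submitters' processing notes name build mm10 and, with no role or order, featureCounts 1.5.0, STAR, DESeq2, edgeR and Trim Galore. Whether reads were collapsed by molecular identifier is not given in the sources used here, and floors cover counting error only. SE and SD values also hold the spread between libraries. Of 55401 rows, 55141 matched GENCODE M21 by identifier without version. Sequences were read from the GENCODE M21 transcript file (GRCm38).

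Counts were filtered by filterByExpr, scaled by TMM and fitted by edgeR 4.0.16 (R 4.3.3) with a quasi-likelihood model on group, with Benjamini-Hochberg adjustment over all genes tested. CPM values are TMM-scaled. Log2 differences were taken as KO minus WT. Alternatives were DESeq2 1.42.0, other scalings (raw library totals, RLE, upper quartile, ribosomal protein genes, library sizes without mitochondrially encoded genes), no filter, a stricter filter (at least 1 CPM in 4 libraries), robust dispersion, a replicate block, and leaving out each library. A count of members outside the matched span was added after seeing the data. The fit was tested on simulated data.

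Members, lists and tests were chosen with earlier results of these data known. Named genes were all members, Tet1, and per list up to 4 genes of lowest p plus members of the less common direction where 5 or fewer went that way. A gene that this rule names is not reported here.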

Additional observations from a re-analysis of the deposited data

Results flagged for a closer look

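Of 92 groups of 4 libraries examined, 5 had 1 library far from the other 3, and chance alone gives about 5%. In KO 3, mt-Co1 was high at 6951 CPM, against 5973 to 6021 CPM in the other KO libraries. In KO 1, mt-Co2 was high at 9.41 CPM, against 1.93 to 3.03 CPM. In WT 4, mt-Tk was low at 0.129 CPM, against 0.682 to 0.717 CPM. In WT 1, mt-Tp was high at 27.6 CPM, against 11.8 to 14.2 CPM. In KO 3 the ratio of mt-Atp8 to mt-Atp6 was low at 0.0123, against 0.130 to 0.153, and mt-Atp8 had a count of 0 there.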

How the results depend on the processing

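The number of members called higher was 21, between 15 and 27 in the other settings with all libraries, and 16 to 26 when each library was left out. The number called lower was 0 and reached 1 only without KO 1 (range 0 to 1). RLE scaling and library sizes without mitochondrially encoded genes kept every call. The messengers mt-Nd2, mt-Nd4, mt-Nd5, mt-Nd6 and mt-Cytb kept direction and call in all 18 settings run. Signs turned only for members without a call. With upper-quartile scaling mt-Rnr1 was -0.008, mt-Atp8 -0.045, mt-Tg -0.041 and mt-Nd4l -0.082. With scaling on ribosomal protein genes mt-Atp8 was -0.019, mt-Nd4l -0.047 and mt-Tg just below 0 (-0.0), and on raw totals mt-Nd4l was -0.012. Leaving out each library gave ranges of -0.91 to 0.088 for mt-Co2, -0.867 to 0.611 for mt-Atp8, -0.926 to 0.147 for mt-Atp6, -0.687 to 0.307 for mt-Co3, -0.803 to 0.61 for mt-Tg and -0.292 to 0.597 for mt-Nd4l. On the log2 scale it gave -0.028 to 0.115 for the ratio mt-Nd6:mt-Nd5, -0.047 to 0.018 for the ratio mt-Rnr1:mt-Rnr2 and -0.63 to 0.581 for the ratio mt-Atp8:mt-Atp6, which was 0.414 from fitted differences. The cause of these changes was not tested.

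Same-numbered libraries correlated by 0.148, -0.213, -0.115 and 0.0147 in their deviations, so the numbers were not taken to pair them. The deposited library names of KO 1 and WT 1 also share a number that the labels do not explain, and theirs was the 1 pair in which the KO library matched the WT library of its own number best. With the replicate block 19 members were higher and 0 lower, mt-Co1 and mt-Nd3 lost their calls, mt-Atp8 was -0.057 and mt-Tg -0.193. The smallest p of the 4 sign flips is 0.125, so the block allows no call for a ratio. Counting only the 22 tested members outside the matched span and with under 10% of windows copied, chosen after seeing the data, 17 were higher and 0 lower.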
